A study of Mus musculus with 24 samples.

Results

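Chemokines are small secreted proteins that set the direction in which leukocytes move, and their receptors are the G protein-coupled receptors that read them. The genes described here are all those whose symbol starts with Ccl, Cxcl, Ccr or Cxcr followed by a number, together with Cx3cl1 and Cx3cr1, and that have a probe set assigned to exactly 1 gene symbol. This rule, which uses no measured value, gave 50 of the 19937 genes on the array, 33 ligands and 17 receptors. A gene with several such probe sets is represented by the brightest on average across the 24 arrays.

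CC and CXC chemokines are named for the spacing of their first cysteines. Inflammatory members are induced in injured tissue and draw in monocytes, neutrophils and T cells, whereas homeostatic members such as Cxcl12 and Ccl19 place cells within resting tissue. In damaged skeletal muscle, monocytes that carry Ccr2 enter in response to its ligands and give rise to macrophages, which clear debris and support repair by satellite cells.

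RNA came from the plantaris, a calf muscle that extends the ankle and flexes the toes, of mice aged 3 months. Wildtype mice and Mstn-/- mice, which carry a knock out of the myostatin gene, a TGF-beta family restraint on muscle growth, were each studied without overload and with overload, 6 biological replicates per group and 1 array per replicate. Overloaded mice had, under pentobarbitone (50 mg/kg), both soleus muscles and much of both gastrocnemius muscles taken out, which leaves the plantaris to bear the load. Control mice had no operation, so surgery, anaesthesia and load differ together between overloaded and untreated groups. The sources used here do not give the strain, the sex, the length of overload, the deleted part of Mstn or how many litters the mice came from.

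All 8 muscle fibre markers, among them Acta1 and Ckm, were above the filter level in every group, with summed intensities of 74167 to 97122 per array. Mstn itself was 2.51-fold lower in untreated Mstn-/- than in untreated wildtype muscle (limma adjusted p = 2.7e-08) with no overlap between arrays, but was not called different between the overloaded groups (adjusted p = 0.39), so it checks the genotype labels of untreated mice alone. Overloaded wildtype replicate 3 had the highest value of its group for 12 of the 31 members tested and for none the lowest, and overloaded Mstn-/- replicates 2 and 4 each had the highest for 11. Such tallies were not confined to overloaded arrays, since untreated wildtype replicate 1 had the lowest value for 12 and replicate 6 the highest for 10. The summed intensity of 9 neutrophil markers was 2255 on overloaded wildtype replicate 3 against 776 to 1057 on the other arrays of that group, and the sum of 15 macrophage markers was 22760 there against 15792 to 17743. Calls of members that were lost on leaving out single arrays are marked below.

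Values are log2 of the deposited intensities, and probe sets differ in brightness for reasons other than transcript number, so levels are compared between groups and not between genes. Probe sets of 1248 olfactory receptor, vomeronasal receptor and keratin-associated genes, which muscle is not known to use, had a median log2 intensity of 4.91 and a 95th percentile of 6.79. The filter level was 6.63, the 30th percentile of annotated probe sets, and testing required 1 group mean above it. Of the 50 members 31 were tested, 25 ligands and 6 receptors, and 23 of these lay above that level in all 4 groups. The other 8, Ccl1, Ccl8, Ccl20, Ccl22, Ccl24, Cxcl13, Cxcl16 and Ccr2, passed through 1 to 3 groups, so a difference is built into their selection and the counts of tested members below describe and do not support. Ccl1, Ccl4 and Ccl22 stayed under the 95th percentile of the olfactory, vomeronasal and keratin-associated genes in all groups.

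The remaining 19 members lay near background in all 4 groups. They were the ligands Ccl12, Ccl26, Ccl28, Cxcl2, Cxcl3, Cxcl5, Cxcl11 and Cxcl15, and the receptors Ccr1, Ccr1l1, Ccr3, Ccr4, Ccr6, Ccr8, Ccr9, Cxcr1, Cxcr2, Cxcr5 and Cxcr6. Among the near-background genes were thus the receptor of Cxcl13 (Cxcr5), that of Ccl20 (Ccr6), that of Ccl25 (Ccr9), that of the eotaxins (Ccr3) and that of the neutrophil chemokines (Cxcr2).

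**Figure D1:**
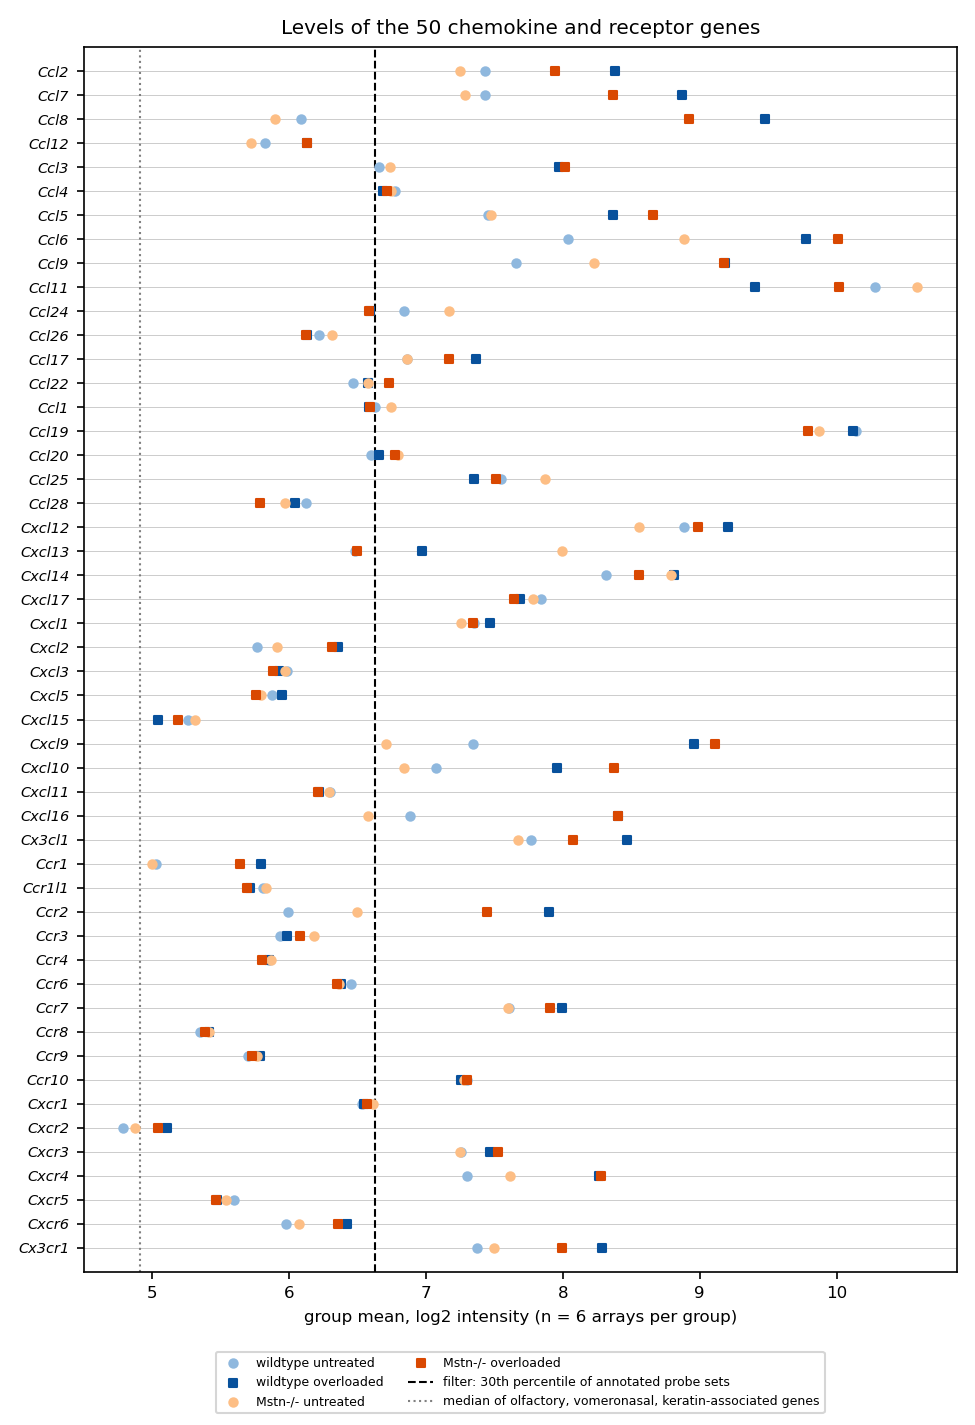
Mean log2 intensity of each of the 50 members in the 4 groups (n = 6 arrays per group; blue, wildtype; orange, Mstn-/-; circles, untreated; squares, overloaded). The dashed line is the filter level of 6.63 and the dotted line the median of 4.91 of genes not known to be used in muscle, and 19 members lie left of the dashed line in all groups.

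The first comparison asks which chemokine genes change when wildtype muscle is overloaded. Most of the inflammatory ligands and the monocyte and macrophage receptors rose, led by Ccl8, Ccr2, Ccl6, Cxcl9, Cxcl16 and Ccl9, while the eotaxin Ccl11 fell. Of the 31 members tested 23 were called, 19 higher and 4 lower, where 65.9% of all genes tested were called in either direction, 30.3% higher and 35.6% lower. At least 2-fold higher were 8 members (5.95% of all genes), and none was at least 2-fold lower (2.28% of all genes). For 17 members all 6 overloaded arrays lay above all 6 untreated ones (21.8% of all genes), and for Ccl11 alone they all lay below (21.1% of all genes). The median log2 difference of the tested members was 0.50 against -0.06 for all genes tested. With no filter 22 of all 50 members were higher and 5 lower, where 4651 of all 19937 genes were higher and 6325 lower.

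The second comparison asks the same of muscle without myostatin. The same inflammatory ligands rose, with the interferon-inducible Cxcl9 and Cxcl10 next to Ccl8 and Cxcl16 among the largest rises, and Cxcl13 fell. There were 25 members called, 19 higher and 6 lower, against 60.6% of all genes in either direction, 27.1% higher and 33.5% lower. 8 members rose at least 2-fold (3.87% of all genes), and Cxcl13 alone fell at least 2-fold (0.731%). All overloaded arrays lay above all untreated ones for 15 members (19.8% of all genes) and below for 4 (20.1%). The median was 0.31, against -0.06 for all genes tested. The comparisons in wildtype and Mstn-/- muscle share no array, and 18 members were higher in both (23.7% of all genes tested), 4 lower in both (25.7%) and none called in opposite directions (0.821%).

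**Figure D2:**
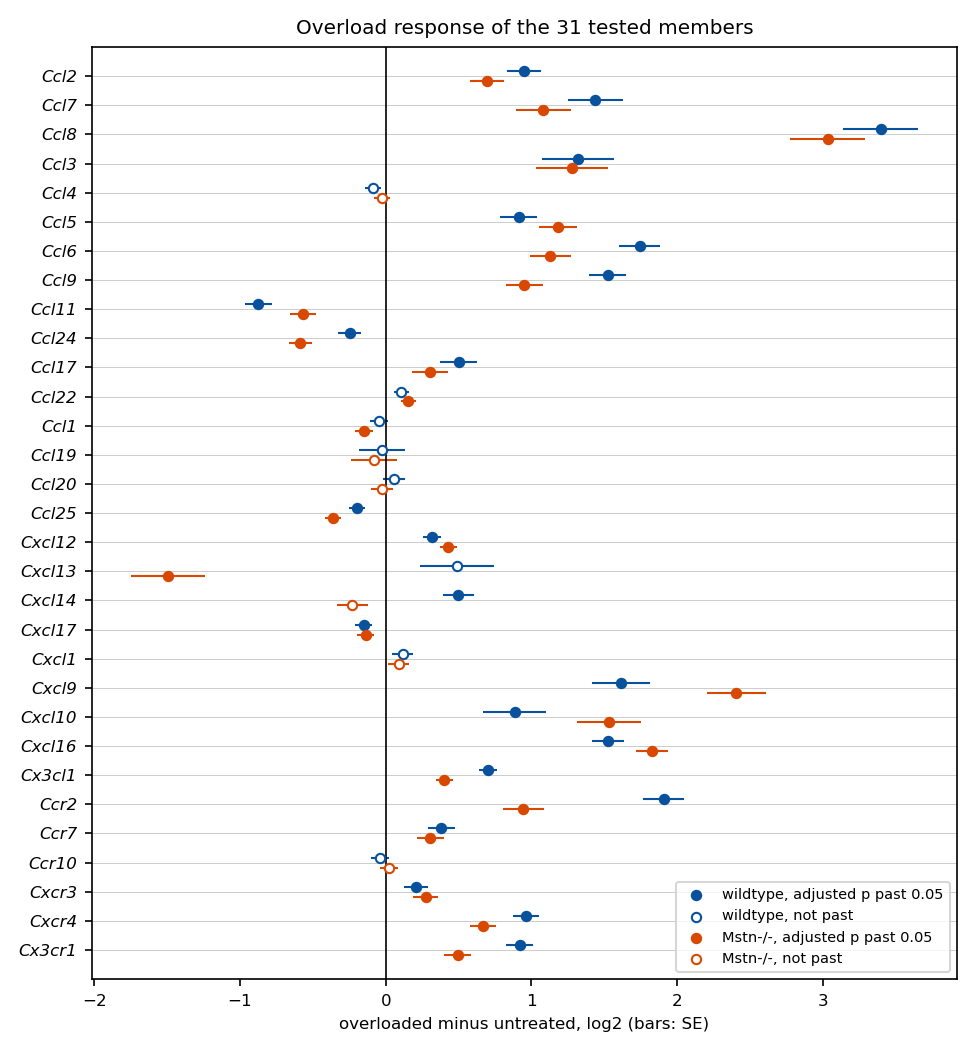
Log2 difference between overloaded and untreated muscle for the 31 tested members, in wildtype (blue) and Mstn-/- mice (orange), with standard errors as bars; filled circles have a limma adjusted p under 0.05. Ccl8 lies farthest right in both genotypes, at 3.40 and 3.03, and Cxcl13 is the point farthest left, at -1.495 in Mstn-/- muscle.

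The sequences just upstream of a start site show what a factor could read there. RefSeq promoter entries (GRCm38.p6) matched 36 of the 50 members, and 5 are printed because their genes carry the main patterns, Ccl8 as the largest rise, Ccl9 as a CC ligand whose rise differed between genotypes, Cxcl9 and Cxcl10 as the interferon-inducible pair, and Cxcl13 as the ligand that fell in Mstn-/- muscle. Each is the 250 bases that end right before the annotated start, 5′ to 3′ in the direction of the gene, from chr11:82114935-82115184 (plus strand) for Ccl8, chr11:83578637-83578886 (minus strand) for Ccl9, chr5:92328080-92328329 (minus strand) for Cxcl9, chr5:92348890-92349139 (minus strand) for Cxcl10 and chr5:95956689-95956938 (plus strand) for Cxcl13. Capitals mark matches on either strand to the motifs searched, which were the interferon-stimulated response element (TTTC, any 2 bases, TTTC), the gamma-activated site TTCNNNGAA, the AP-1 site TGANTCA, the TATA box TATAAA and the NF-kappaB consensus.
Ccl8: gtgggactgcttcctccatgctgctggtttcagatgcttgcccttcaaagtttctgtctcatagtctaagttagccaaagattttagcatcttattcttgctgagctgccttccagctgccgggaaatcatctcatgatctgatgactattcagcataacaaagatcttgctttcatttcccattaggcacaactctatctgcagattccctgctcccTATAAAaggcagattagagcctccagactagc
Ccl9: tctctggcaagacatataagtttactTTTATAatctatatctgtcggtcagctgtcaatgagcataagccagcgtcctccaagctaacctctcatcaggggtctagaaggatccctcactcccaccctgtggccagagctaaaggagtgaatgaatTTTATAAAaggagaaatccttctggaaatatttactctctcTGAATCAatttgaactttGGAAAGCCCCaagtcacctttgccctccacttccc
Cxcl9: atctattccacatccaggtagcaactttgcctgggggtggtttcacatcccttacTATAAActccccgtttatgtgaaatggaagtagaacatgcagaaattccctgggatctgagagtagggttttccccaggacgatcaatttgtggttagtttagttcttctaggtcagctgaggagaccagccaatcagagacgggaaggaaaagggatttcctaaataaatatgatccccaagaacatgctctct
Cxcl10: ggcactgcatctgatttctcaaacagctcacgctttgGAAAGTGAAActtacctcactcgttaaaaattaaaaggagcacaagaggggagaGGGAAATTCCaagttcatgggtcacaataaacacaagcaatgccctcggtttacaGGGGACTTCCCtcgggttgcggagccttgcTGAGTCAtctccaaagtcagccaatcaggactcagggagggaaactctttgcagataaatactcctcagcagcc
Cxcl13: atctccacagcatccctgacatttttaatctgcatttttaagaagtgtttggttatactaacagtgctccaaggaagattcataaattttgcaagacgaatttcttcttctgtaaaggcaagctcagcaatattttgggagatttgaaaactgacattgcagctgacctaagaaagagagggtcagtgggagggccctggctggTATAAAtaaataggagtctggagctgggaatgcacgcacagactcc
Cxcl10 was the single printed promoter with a match to the interferon-stimulated element, at positions -213 to -204 (the last base before the start is -1), and it also held NF-kappaB matches, a pair of which overlap, and an AP-1 match. Ccl9 held an AP-1 match, an NF-kappaB match and TATA matches, 2 of them overlapping on opposite strands. In Ccl8, Cxcl9 and Cxcl13 TATA was the only match. It lay at -32 to -27 in Ccl8, at -46 to -41 in Cxcl13 and farther upstream in Cxcl9, at -195 to -190. Of 32851 promoters of this length 2.98% held the interferon-stimulated element, 7.02% the gamma-activated site, 6.75% the AP-1 site, 12.4% TATAAA and 7.25% the NF-kappaB consensus. Of the 38 promoter entries of members the numbers with a match were 3, 4, 4, 11 and 10 in the same order. A match is a run of letters and not evidence that a factor binds.

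Ccl8 (monocyte chemoattractant protein 2), which in mice acts through Ccr8, rose most in both genotypes. Its log2 intensity ran from 5.86 to 6.51 (median 6.05) in untreated and from 9.09 to 10.19 (median 9.41) in overloaded wildtype muscle. In Mstn-/- muscle it ran from 5.67 to 6.22 (median 5.87) without and from 7.81 to 10.28 (median 8.72) with overload. Every overloaded array of a genotype lay above every untreated one, and the spread was widest in overloaded Mstn-/- muscle, with replicate 2 highest and replicate 6 lowest. The group means differed 10.5-fold in wildtype (log2 3.40 ± 0.26, SE, adjusted p = 9.8e-12) and 8.18-fold in Mstn-/- mice (adjusted p = 1.9e-10). Since the untreated means lay below the filter level, the rises measured from that level, at least 7.21-fold and at least 4.91-fold, are the firmer statement. Its receptor Ccr8 stayed near background, with group means of 5.35 to 5.42.

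Ccl2 and Ccl7 (monocyte chemoattractant proteins 1 and 3) are ligands of Ccr2, as is Ccl12 in mice. Ccl2 ran from 7.23 to 7.60 (median 7.46) in untreated and from 8.02 to 8.84 (median 8.38) in overloaded wildtype muscle, and from 6.93 to 7.42 (median 7.28) and from 7.65 to 8.23 (median 7.98) in Mstn-/- muscle. Neither genotype showed overlap between untreated and overloaded arrays, with rises of 1.93-fold (adjusted p = 7.7e-08) and 1.62-fold (adjusted p = 1.4e-05). Ccl7 rose from a median of 7.47 (7.06 to 7.66) to 8.93 (8.30 to 9.46) in wildtype and from 7.27 (7.18 to 7.45) to 8.35 (7.58 to 9.17) in Mstn-/- muscle, 2.71-fold (adjusted p = 2.0e-07) and 2.12-fold (adjusted p = 2.2e-05), again without overlap. Ccl12 was not tested with the filter, and without it its rises of 0.31 ± 0.11 and 0.41 ± 0.11 on the log2 scale passed (adjusted p = 0.02 and 0.0035), with all group means at or below 6.13.

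Ccr2, the receptor that brings monocytes out of bone marrow and into tissue, rose with its ligands, and more in wildtype. It ran from 5.60 to 6.18 (median 6.06) untreated and from 7.57 to 8.48 (median 7.81) overloaded in wildtype, and from 6.00 to 6.93 (median 6.48) and from 7.09 to 7.77 (median 7.42) in Mstn-/- muscle. The groups did not overlap in either genotype, and the highest wildtype array was replicate 3. The rise was 3.75-fold in wildtype (log2 1.91 ± 0.14, adjusted p = 7.4e-12) and 1.92-fold in Mstn-/- mice (adjusted p = 2.5e-06). Both untreated means were below the filter level, and from that level the rises were at least 2.41-fold and at least 1.76-fold.

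Ccl3, Ccl4 and Ccl5 are inflammatory ligands that attract monocytes and T cells, and Ccl6 and Ccl9 are rodent ligands of Ccr1. Ccl6 ran from 7.77 to 8.21 (median 8.06) untreated and from 9.17 to 10.30 (median 9.82) overloaded in wildtype, and from 8.66 to 9.07 (median 8.90) and from 9.69 to 10.60 (median 9.92) in Mstn-/- muscle. The 4 ranges form 3 steps, since untreated Mstn-/- arrays lay above untreated wildtype ones while the overloaded groups overlapped. Its rise was 3.34-fold in wildtype (adjusted p = 3.3e-11) against 2.19-fold in Mstn-/- mice (adjusted p = 1.4e-07). Ccl9 followed the same order, from 7.41 to 7.78 (median 7.69) untreated and from 8.81 to 9.76 (median 9.14) overloaded in wildtype, and from 7.91 to 8.44 (median 8.26) and from 8.78 to 9.70 (median 9.15) in Mstn-/- muscle, with rises of 2.87-fold (adjusted p = 9.0e-11) and 1.93-fold (adjusted p = 5.6e-07).

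Ccl3 (macrophage inflammatory protein 1 alpha) rose from a narrow to a wide range. In wildtype it ran from 6.56 to 6.71 (median 6.68) untreated and from 7.22 to 9.27 (median 7.74) overloaded, and in Mstn-/- muscle from 6.48 to 6.97 (median 6.72) and from 7.36 to 9.01 (median 8.03). The highest overloaded arrays were wildtype replicate 3 and Mstn-/- replicate 2, and no overloaded array overlapped the untreated ones. The rise was 2.49-fold in wildtype (adjusted p = 4.0e-05) against 2.43-fold in Mstn-/- mice (adjusted p = 7.9e-05). With both overloaded arrays of highest neutrophil marker sum left out (wildtype replicate 3 and Mstn-/- replicate 4), the wildtype log2 rise was 1.06 in place of 1.32 and still passed (adjusted p = 5.5e-05, with 8.1e-06 to 0.00019 over all settings). Ccl4, next to Ccl3 in the genome, showed no call, at -0.09 ± 0.06 and -0.03 ± 0.06, with 95% intervals of -0.20 to 0.03 and -0.14 to 0.08, but its probe set lay near background in all groups.

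Ccl5 (RANTES), a T cell and macrophage product, ran from 7.36 to 7.59 (median 7.46) untreated and from 8.07 to 8.68 (median 8.33) overloaded in wildtype. In Mstn-/- muscle the ranges were 7.31 to 7.72 (median 7.46) and 8.23 to 9.07 (median 8.68). Overloaded arrays lay above untreated ones in both genotypes, by 1.88-fold (adjusted p = 6.1e-07) and 2.27-fold (adjusted p = 1.5e-08) in the means. Ccr1, the receptor for Ccl3, Ccl5, Ccl6 and Ccl9, lay below the filter level throughout, from 4.74 to 5.36 (median 4.99) and from 5.41 to 6.30 (median 5.76) in untreated and overloaded wildtype, and from 4.73 to 5.46 (median 4.97) and from 5.15 to 6.00 (median 5.72) in Mstn-/- muscle. Without the filter its rises of 0.76 ± 0.15 and 0.64 ± 0.15 on the log2 scale passed (adjusted p = 1.3e-04 and 0.0011).

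Cxcl9, Cxcl10 and Cxcl11 are induced by interferons and act on T cells and natural killer cells through Cxcr3. Cxcl9 ran from 7.14 to 7.53 (median 7.34) untreated and from 8.25 to 9.54 (median 8.99) overloaded in wildtype, and from 6.58 to 6.92 (median 6.68) and from 8.36 to 9.74 (median 9.26) in Mstn-/- muscle. Mstn-/- arrays started lower and ended at an overlapping level, with rises of 3.06-fold (log2 1.61 ± 0.20, adjusted p = 9.7e-08) in wildtype and 5.30-fold (log2 2.41 ± 0.20, adjusted p = 1.9e-10) in Mstn-/- muscle. Cxcl10 ran from 6.88 to 7.27 (median 7.07) and from 7.51 to 8.62 (median 7.94) in wildtype, and from 6.62 to 7.11 (median 6.79) and from 7.63 to 9.49 (median 8.36) in Mstn-/- muscle, rising 1.85-fold (adjusted p = 9.3e-04) and 2.89-fold (adjusted p = 1.3e-06). In overloaded muscle of both genotypes replicate 1 had the lowest Cxcl10. Cxcl11 stayed near background, with group means of 6.21 to 6.30.

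Their receptor Cxcr3 moved little. It ran from 7.01 to 7.45 (median 7.26) untreated and from 7.23 to 7.64 (median 7.47) overloaded in wildtype, and from 7.04 to 7.38 (median 7.27) and from 7.41 to 7.77 (median 7.44) in Mstn-/- muscle. The wildtype groups overlapped and the Mstn-/- groups did not, with rises of 1.15-fold (adjusted p = 0.03) and 1.21-fold (adjusted p = 0.0062). Without overloaded wildtype replicate 3, or without any of 5 other wildtype arrays, the wildtype rise missed the threshold, and over all settings its adjusted p ran from 0.0089 to 0.1.

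Cxcl16 and Cx3cl1 (fractalkine) are made as membrane-bound proteins that can hold cells by adhesion and, once cut, attract them. Cxcl16 ran from 6.60 to 7.01 (median 6.93) untreated and from 8.22 to 8.67 (median 8.37) overloaded in wildtype, and from 6.39 to 6.71 (median 6.61) and from 8.0 to 8.71 (median 8.44) in Mstn-/- muscle. The wide gap between untreated and overloaded arrays was filled by no array of either genotype. The rise was 2.88-fold in wildtype (adjusted p = 5.4e-12) against 3.55-fold in Mstn-/- mice (adjusted p = 6.8e-13), where the untreated mean was just below the filter level. Its receptor Cxcr6, found on subsets of T cells, lay below that level in all groups, and without the filter its rises of 0.45 ± 0.11 and 0.29 ± 0.11 on the log2 scale passed (adjusted p = 0.0016 and 0.038).

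Cx3cl1 ran from 7.66 to 7.88 (median 7.76) untreated and from 8.35 to 8.66 (median 8.43) overloaded in wildtype, and from 7.54 to 7.84 (median 7.63) and from 7.996 to 8.13 (median 8.09) in Mstn-/- muscle. The overloaded genotypes did not overlap, with Mstn-/- arrays between the untreated and the overloaded wildtype ones. The rise was 1.63-fold in wildtype (adjusted p = 1.1e-10) against 1.32-fold in Mstn-/- mice (adjusted p = 2.4e-06). Cx3cr1, its receptor on monocytes and tissue macrophages, ran from 7.27 to 7.48 (median 7.36) and from 8.10 to 8.51 (median 8.28) in wildtype, and from 7.35 to 7.68 (median 7.49) and from 7.63 to 8.24 (median 8.10) in Mstn-/- muscle. It rose 1.89-fold in wildtype (adjusted p = 1.8e-09) without overlap and 1.41-fold in Mstn-/- mice (adjusted p = 5.0e-05), where overloaded replicate 5 fell within the untreated range.

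Cxcl12 is made by stromal and endothelial cells and, through Cxcr4, holds stem cells and leukocytes in tissue. It ran from 8.73 to 9.04 (median 8.88) and from 9.06 to 9.36 (median 9.20) in untreated and overloaded wildtype, and from 8.39 to 8.67 (median 8.58) and from 8.93 to 9.03 (median 9.003) in Mstn-/- muscle. The rises were small and without overlap, 1.25-fold (adjusted p = 4.7e-05) and 1.35-fold (adjusted p = 9.4e-07). Cxcr4 ran from 7.12 to 7.57 (median 7.26) and from 8.10 to 8.55 (median 8.23) in wildtype, and from 7.46 to 7.73 (median 7.65) and from 8.02 to 8.61 (median 8.31) in Mstn-/- muscle, rising 1.95-fold (adjusted p = 8.7e-10) and 1.59-fold (adjusted p = 7.9e-07). Ackr3, the decoy receptor that removes Cxcl12, was not called in either genotype (log2 0.00 and 0.14, adjusted p = 0.97 and 0.14).

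The eotaxins went the other way. Ccl11, which recruits eosinophils through Ccr3, ran from 10.14 to 10.37 (median 10.29) untreated and from 9.19 to 9.77 (median 9.38) overloaded in wildtype, and from 10.44 to 10.76 (median 10.60) and from 9.75 to 10.34 (median 10.03) in Mstn-/- muscle. Every overloaded array lay below every untreated array of its genotype, and the fall was 1.83-fold in wildtype (adjusted p = 3.2e-09) against 1.48-fold in Mstn-/- mice (adjusted p = 5.6e-06). In the RefSeq gene order Ccl11 stands in a run of 6 members, Ccl2, Ccl7, Ccl11, Ccl12, Ccl8 and Ccl1. Of its neighbours there, Ccl2, Ccl7 and Ccl8 rose in both genotypes and Ccl12 lay near background. Ccl1 was called in Mstn-/- muscle alone, as lower. Ccl24, another eotaxin, ran from 6.69 to 6.96 (median 6.84) and from 6.33 to 6.79 (median 6.63) in wildtype, and from 7.01 to 7.42 (median 7.15) and from 6.38 to 6.74 (median 6.61) in Mstn-/- muscle. It fell in both genotypes, with log2 differences of -0.25 ± 0.08 (adjusted p = 0.0075) and -0.585 ± 0.08 (adjusted p = 5.3e-07), to means below the filter level. The third eotaxin gene, Ccl26, and the receptor Ccr3 lay near background.

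Ccl17 and Ccl22 draw type 2 helper and regulatory T cells through Ccr4. Ccl17 rose 1.41-fold in wildtype (adjusted p = 0.0011) with overlapping arrays and 1.23-fold in Mstn-/- mice (adjusted p = 0.04), and the latter call was lost without any of 6 Mstn-/- arrays, overloaded replicate 2 among them (highest adjusted p over all settings 0.11). Ccl22 was called higher in Mstn-/- muscle (1.11-fold, adjusted p = 0.0097) and Ccl1, a Ccr8 ligand, lower (1.11-fold, adjusted p = 0.046), both near background. The Ccl1 call was lost without any of 9 single arrays, overloaded Mstn-/- replicates 2 and 4 among them, and in 3 processing settings (highest adjusted p over all settings 0.097). Ccr7, the receptor that guides dendritic cells and T cells to lymph nodes, rose 1.30-fold (adjusted p = 6.4e-04) and 1.24-fold (adjusted p = 0.0053). Its ligand Ccl19 was not called in any comparison on the probe set used. Ccr10 and the mucosal ligand Ccl20 were called in none either, while Ccl25, the thymic and gut ligand of Ccr9, fell 1.14-fold (adjusted p = 0.003) and 1.28-fold (adjusted p = 3.6e-06), and the mucosal Cxcl17 fell 1.11-fold and 1.10-fold (adjusted p = 0.028 and 0.047), calls that were lost on leaving out any of 4 and of 15 single arrays (highest adjusted p over all settings 0.083 and 0.13).

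Of the 5 CXC ligands that attract neutrophils (Cxcl1, Cxcl2, Cxcl3, Cxcl5 and Cxcl15) only Cxcl1 was tested, and it was not called. It differed by 0.12 ± 0.07 in wildtype and 0.09 ± 0.07 in Mstn-/- muscle on the log2 scale (adjusted p = 0.15 and 0.28), with 95% intervals of -0.03 to 0.27 and -0.06 to 0.24. Without the filter Cxcl15 passed as lower in overloaded wildtype muscle (log2 -0.22 ± 0.08, adjusted p = 0.018), at group means of 5.04 to 5.31. Cxcl2 lay above the filter level on 3 arrays alone, overloaded Mstn-/- replicate 2 at 8.03 with its group's median at 5.95, and overloaded wildtype replicates 3 and 4 at 7.45 and 6.71 with a median of 6.12. Overloaded Mstn-/- replicate 2 and overloaded wildtype replicate 3 also had the highest Cxcr2, at 5.83 and 6.00, where the other overloaded arrays had 4.72 to 5.12.

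**Figure D3:**
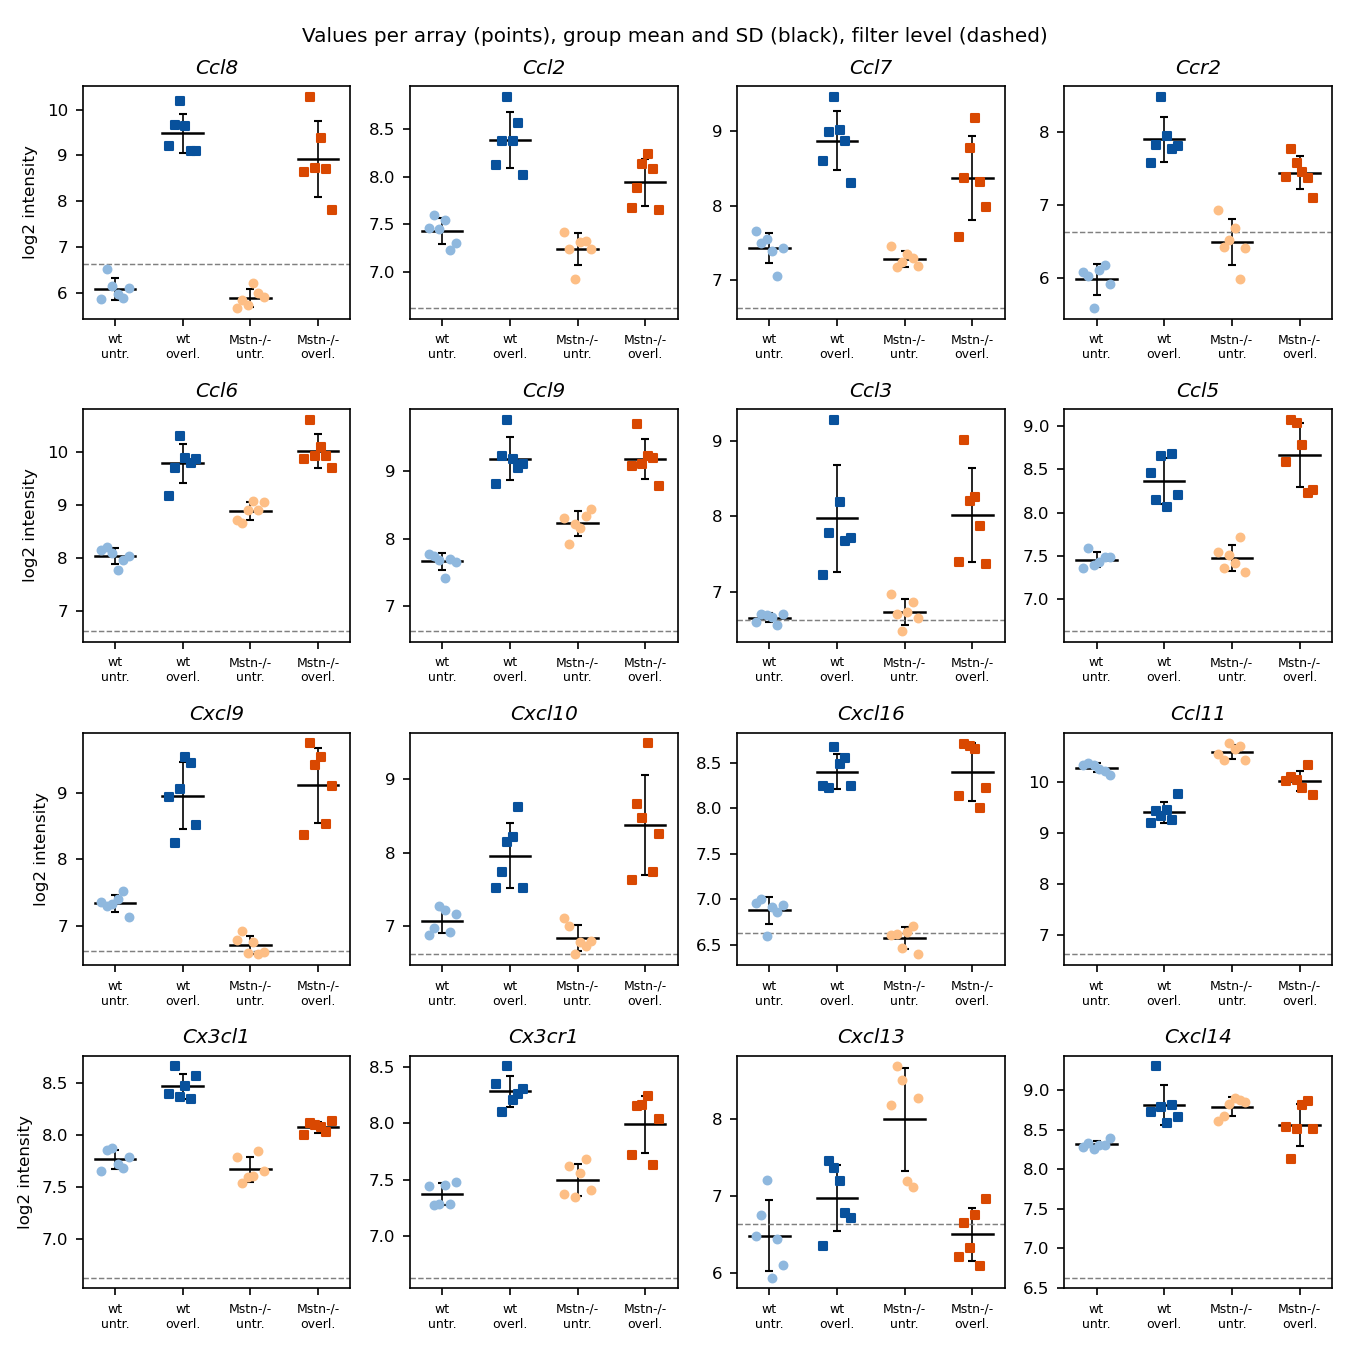
Log2 intensity of the members with the main patterns on each array (points; wt, wildtype; untr., untreated; overl., overloaded; n = 6 per group), with the group mean and SD in black and the filter level of 6.63 as a dashed line. Overloaded arrays lie above untreated ones for most genes shown, Ccl11 lies lower, and Cxcl13 is highest in untreated Mstn-/- muscle; each panel has its own vertical axis.

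The genotypes were next compared in untreated muscle, which asks what lack of myostatin does to chemokine genes at rest. Higher in Mstn-/- muscle were Cxcl13, Ccl6, Ccl9, Ccr2, Cxcl14, Ccl25, Ccl24, Cxcr4 and Ccl11, and lower were Cxcl9, Cxcl12 and Cxcl16. These 9 and 3 members compare with 11.1% of all genes higher and 10.2% lower, and 12 members with 21.3% called in either direction. Arrays of the genotypes did not overlap for 6 of the higher members (6.53% of all genes) and for 2 of the lower (5.47%). Cxcl13 alone was at least 2-fold higher (0.159% of all genes) and no member at least 2-fold lower (0.200%). The median difference of the tested members was 0.00, against -0.01 for all genes tested.

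Cxcl13, which places B cells through Cxcr5, showed the largest difference. It ran from 5.93 to 7.21 (median 6.45) in untreated wildtype and from 7.11 to 8.68 (median 8.23) in untreated Mstn-/- muscle, so that the lowest Mstn-/- array overlapped the highest wildtype one. The fold was 2.85 (log2 1.51 ± 0.25, adjusted p = 9.5e-05), or at least 2.57 from the filter level, below which the wildtype mean lay. Within-group spread was wide, since Cxcl13 had the highest SD of the tested members in both untreated groups, 0.46 and 0.67. Its receptor Cxcr5 stayed near background and of the B cell markers 2 of 5 were tested, neither called between untreated genotypes.

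Among the inflammatory ligands Ccl6 was 1.80-fold (adjusted p = 7.8e-05) and Ccl9 1.48-fold (adjusted p = 0.0022) higher in untreated Mstn-/- muscle, both without overlap. Ccr2 was 1.42-fold higher (adjusted p = 0.011), with both means below the filter level, and Cxcr4 1.24-fold (adjusted p = 0.015). Macrophage markers moved with them, 6 of 15 higher and none lower, with summed intensities of 4892 to 6116 per array in untreated Mstn-/- and 3422 to 4638 in untreated wildtype muscle, and their part in these differences was not tested. More cells of a type and more RNA per cell cannot be told apart in whole muscle. Mast cell markers were also higher, 3 of 4 tested, whereas neutrophil markers were not, with 0 of 6 called and sums of 709 to 763 and 707 to 815. Among all genes tested 11.1% were higher and 10.2% lower.

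Cxcl14, a ligand expressed by epithelia and fibroblasts, ran from 8.26 to 8.39 (median 8.30) in untreated wildtype and from 8.61 to 8.90 (median 8.84) in untreated Mstn-/- muscle, 1.39-fold higher without overlap (adjusted p = 0.0016). Ccl25, Ccl24 and Ccl11 were 1.25-fold, 1.25-fold and 1.24-fold higher (adjusted p = 1.0e-04, 0.004 and 0.014), each without overlap. In the opposite direction Cxcl9 was 1.55-fold (adjusted p = 0.026) and Cxcl12 1.26-fold (adjusted p = 2.6e-04) lower, both without overlap. Without untreated wildtype replicate 5 or untreated Mstn-/- replicate 3 the Cxcl9 call was lost, at adjusted p up to 0.054. Cxcl16 was 1.24-fold lower at the edge of the threshold (adjusted p = 0.049), a call that 15 of the 24 single-array omissions and 5 processing settings ended.

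The fourth comparison asks which chemokine genes differ between genotypes once muscle is overloaded. Mstn-/- muscle had more Ccl11, Ccl25 and Ccl22, and less Ccl2, Ccl7, Ccr2, Cx3cl1, Cx3cr1 and Cxcl12, so that 9 members were called where 36.5% of all genes were, 3 higher (17.5% of all genes) and 6 lower (19.0%). Non-overlapping arrays were found for Cx3cl1 and Cxcl12, both lower (8.46% of all genes), and for no higher member (7.06%). No member differed by 2-fold or more, higher (0.372% of all genes) or lower (0.166%). The median of the tested members was 0.00 against -0.03 for all genes tested. Ccl11 was 1.53-fold higher (log2 0.62 ± 0.09, adjusted p = 7.7e-06), from ranges of 9.75 to 10.34 in Mstn-/- and 9.19 to 9.77 in wildtype muscle that touch at 1 array of each. Ccl25 was 1.12-fold (adjusted p = 0.023) and Ccl22, near background, 1.11-fold higher (adjusted p = 0.018). The Ccl25 call was lost without overloaded wildtype replicate 3 or 5 or overloaded Mstn-/- replicate 1, and with array weights (highest adjusted p 0.069).

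The 6 lower members were 19.4% of those tested, close to the 19.0% of all genes. Among them, those of monocyte and macrophage traffic were lower by 1.23-fold to 1.42-fold. Cx3cl1 was 1.31-fold lower (adjusted p = 1.3e-05) and Cx3cr1 1.23-fold lower (adjusted p = 0.013). Ccl2 was 1.36-fold (adjusted p = 0.0043), Ccl7 1.42-fold (adjusted p = 0.037) and Ccr2 1.37-fold (adjusted p = 0.013) lower, all with overlapping arrays. The Ccl7 call was lost without any of 8 overloaded arrays, wildtype replicate 3 among them, and in 2 processing settings (highest adjusted p over all settings 0.13). Ccr2, whose adjusted p ran from 0.0065 to 0.058 over all settings, missed the threshold with both overloaded arrays of highest neutrophil marker sum left out. Cxcl12 was 1.16-fold lower (adjusted p = 0.0064). Of 15 macrophage markers 4 were lower and none higher in overloaded Mstn-/- muscle, with sums of 10978 to 20070 against 15792 to 22760. Among all genes tested 19.0% were lower and 17.5% higher. Of 6 fibro-adipogenic progenitor markers 4 were lower and none higher, with sums of 23401 to 26714 against 30968 to 36097, and of 8 muscle fibre markers 5 were higher and 1 lower. The part of these cell types in the differences was not tested. Ccl8 missed the threshold (log2 -0.55 ± 0.26, adjusted p = 0.092) with a 95% interval of -1.08 to -0.03.

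**Figure D4:**
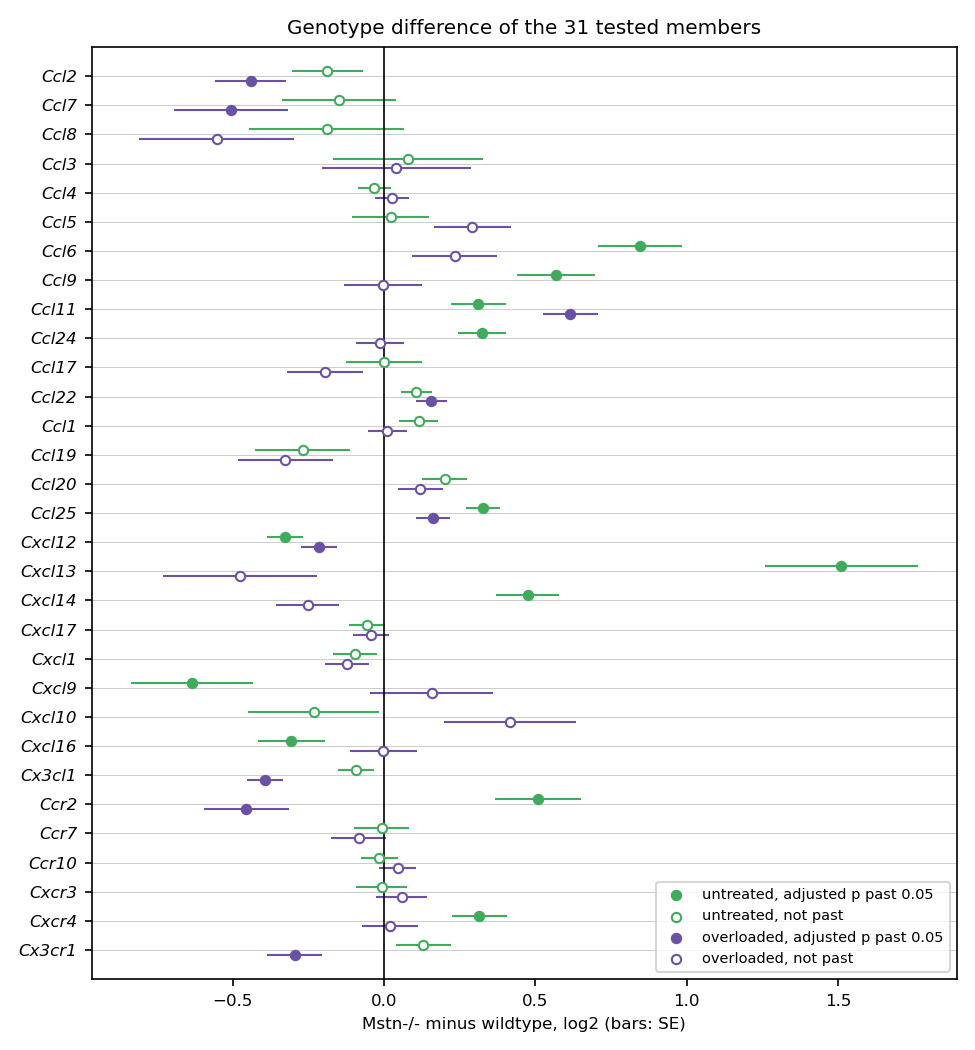
Log2 difference between Mstn-/- and wildtype muscle for the 31 tested members, untreated (green) and overloaded (purple), with standard errors as bars; filled circles have a limma adjusted p under 0.05. Cxcl13 lies farthest right in untreated muscle, at 1.51, and Ccl11 farthest right under overload, at 0.62.

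The fifth comparison asks whether overload changed chemokine genes differently in the genotypes, as the response in Mstn-/- minus that in wildtype muscle. The response differed for 8 members, Cxcl13, Cxcl14, Ccr2, Cx3cl1, Cx3cr1, Ccl9, Ccl6 and Ccl24, in each case lower in Mstn-/- muscle. Lower here is signed. Ccr2, Cx3cl1, Cx3cr1, Ccl9 and Ccl6 rose less in Mstn-/- muscle, while Ccl24 fell more (log2 -0.585 against -0.25). Over all genes tested 17.4% were called, 8.92% with a higher and 8.44% with a lower response in Mstn-/- muscle. A difference of at least 2-fold was found for Cxcl13 alone among the lower (0.152% of all genes) and for no member among the higher (0.469%). The median was -0.08 against -0.02 for all genes tested. These differences use the same arrays as the comparisons above and restate them as 1 test.

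Cxcl13 showed the largest difference in response. In wildtype muscle it ran from 6.34 to 7.45 (median 6.98) under overload, a difference of 0.49 ± 0.25 from untreated that was not called (adjusted p = 0.09), and in Mstn-/- muscle it ran from 6.09 to 6.96 (median 6.48), 2.82-fold below untreated Mstn-/- muscle (log2 -1.495 ± 0.25, adjusted p = 1.5e-05) and without overlap, or at least 2.57-fold from the filter level, below which the overloaded mean lay. The difference was -1.99 ± 0.36 (adjusted p = 3.9e-04). Cxcl14 rose 1.41-fold in wildtype (adjusted p = 1.5e-04), to 8.58 to 9.30 (median 8.76), and in Mstn-/- muscle ended at 8.13 to 8.87 (median 8.52), a difference from untreated of -0.23 ± 0.10 that was not called (adjusted p = 0.06). Its responses differed by -0.73 ± 0.15 (adjusted p = 0.0011).

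For Ccr2 the difference was -0.96 ± 0.20 (adjusted p = 0.0014), from being higher than wildtype without overload and lower with it. Both untreated means lay below the filter level, where the size of a difference is uncertain, and measured from that level the rises were 1.27 in wildtype and 0.81 in Mstn-/- muscle on the log2 scale. Cx3cl1 and Cx3cr1, the ligand and receptor pair, differed by -0.30 ± 0.09 (adjusted p = 0.015) and -0.42 ± 0.13 (adjusted p = 0.024), where the genotypes were not called different without overload. Ccl6 and Ccl9 differed by -0.61 ± 0.20 (adjusted p = 0.033) and -0.57 ± 0.18 (adjusted p = 0.03). Without overloaded wildtype replicate 3 and overloaded Mstn-/- replicate 4 neither Ccl6 nor Ccl9 passed (adjusted p = 0.064 and 0.056), and each call was also lost without some other single array, 8 for Ccl6 and 4 for Ccl9 in all, replicate 3 of overloaded wildtype among them. Over all settings the adjusted p ran from 0.0052 to 0.064 for Ccl6 and from 0.0057 to 0.061 for Ccl9. Ccl24 differed by -0.34 ± 0.11 (adjusted p = 0.037), a call lost on leaving out any of 11 single arrays (highest adjusted p over all settings 0.072). Macrophage markers differed in the same direction, 7 of 15 lower and none higher with a median of -0.56. Fibro-adipogenic progenitor markers were lower for 3 of 6 and higher for none (median -0.49). Mast cell markers were lower for 2 of 4 tested (Cpa3 and Tpsb2) and higher for none, where 8.44% of all genes were lower and 8.92% higher. The part of these cell types in the differences was not tested.

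No member was called with a higher signed response in Mstn-/- muscle. The nearest by adjusted p was Cxcl9, at 0.79 ± 0.29 (adjusted p = 0.056, 95% interval 0.20 to 1.38). Ccl11, which fell less in Mstn-/- muscle, followed at 0.30 ± 0.13 (adjusted p = 0.1). Cxcl10 came next, at 0.65 ± 0.31 (adjusted p = 0.16, interval 0.01 to 1.28). For Ccl3 the difference was -0.04 ± 0.35 with an interval of -0.76 to 0.68, which leaves room for a change of either sign. Ccl8 gave -0.36 ± 0.36 (adjusted p = 0.56).

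**Figure D5:**
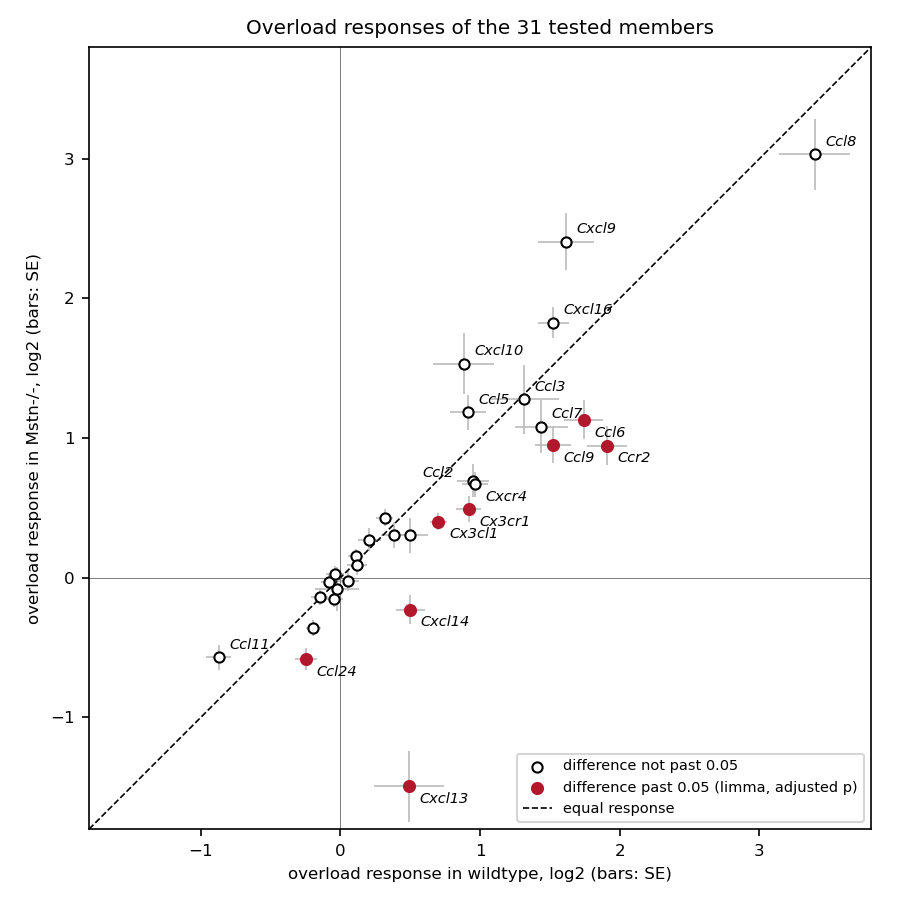
Overload response in Mstn-/- (vertical) against wildtype muscle (horizontal), log2 difference with standard errors, for the 31 tested members; red points differ between genotypes (limma adjusted p under 0.05) and the dashed line marks equal response. The 8 red points all lie below the line, with Cxcl13 farthest from it, and Cxcl9 and Cxcl10 lie above it without passing the test.

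Other genes of chemokine signalling were listed apart from the members, 40 in all, of which 36 were on the array and 32 tested. In wildtype muscle 23 were higher and 2 lower under overload, where 30.3% and 35.6% of all genes tested were. In Mstn-/- muscle 22 were higher and 2 lower, where 27.1% and 33.5% of all genes tested were. The median log2 differences were 0.52 and 0.46, against -0.06 for all genes tested in each. Il1b, Cklf and Rgs1 passed the filter level in overloaded groups alone, so a rise is built into their selection. Pf4, the platelet and macrophage chemokine also called Cxcl4, rose 3.63-fold and 2.24-fold (adjusted p = 6.7e-13 and 7.4e-09), with a smaller response in Mstn-/- muscle (difference -0.70, adjusted p = 0.0057). Genes that carry the receptor signal rose, the G protein subunit Gnai2 by 2.38-fold and 1.96-fold (adjusted p = 4.7e-13 and 1.3e-10) and Dock2, which activates Rac in migrating leukocytes, by 2.94-fold and 2.12-fold (adjusted p = 1.4e-11 and 1.9e-08).

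Of the receptors that bind chemokines without G protein signalling, Ackr1, found on venules, rose 1.49-fold and 1.38-fold (adjusted p = 1.1e-05 and 2.0e-04). Ccrl2, which binds chemerin, was one of the few that fell, 2.08-fold in wildtype and 1.82-fold in Mstn-/- mice (adjusted p = 1.9e-09 and 1.0e-07). Among inducers, Il1b rose 2.38-fold and 2.04-fold (adjusted p = 2.5e-05 and 3.6e-04) and the interferon response factor Irf1 1.31-fold and 1.37-fold (adjusted p = 2.0e-05 and 2.7e-06). The untreated means of Il1b, 6.355 in wildtype and 6.241 in Mstn-/- muscle, lay below the filter level, where the size of a difference is uncertain. Irf1 was also 1.22-fold lower in untreated Mstn-/- than in untreated wildtype muscle (adjusted p = 0.0031) and 1.16-fold lower in overloaded Mstn-/- than in overloaded wildtype muscle (adjusted p = 0.014). Ifng was not called under overload (adjusted p = 0.31 and 0.44), and Tnf, Il6, Xcl1 and Xcr1 lay near background in every group. Between overloaded genotypes 3 of the 32 were higher and 12 lower in Mstn-/- muscle, against 17.5% and 19.0% of all genes tested. The overload response of 5, Pf4, Relb, Arrb1, Pik3cg and Vav1, was lower there, against 8.44% of all genes tested.

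Markers of macrophages, and the 2 monocyte markers tested, moved with the members, and those of other immune cells did so in part. Set beside the counts below, 30.3% of all genes tested were higher under overload in wildtype and 27.1% in Mstn-/- muscle. In overloaded wildtype muscle 14 of 15 macrophage markers were higher and none lower, with a median log2 difference of 1.75 (Adgre1 2.66, Cd68 2.59), and in Mstn-/- muscle 14 were higher and Cd163 lower, with a median of 1.31. Their summed intensity rose from 3422 to 4638 to 15792 to 22760 in wildtype and from 4892 to 6116 to 10978 to 20070 in Mstn-/- muscle. Of 5 monocyte markers listed 3 were on the array and 2 tested. Both of these rose, and Chil3 stayed near background. Of 5 tested T cell markers 3 rose in each genotype, Cd3e by 0.20 and 0.24, Cd4 by 0.77 and 0.79 and Il7r by 1.45 and 1.51, while Cd3d, Cd3g and Cd8b1 stayed near background. Neutrophil markers rose in part, 2 of 6 tested higher and 1 lower in wildtype and 1 higher and 1 lower in Mstn-/- muscle, and S100a8, Ly6g and Retnlg lay near background in all groups. Mast cell markers were higher for 4 of 4 tested in wildtype, and for 1 with 1 lower in Mstn-/- muscle. Dendritic cell markers, 6 tested, were higher for 3 and lower for 1 in wildtype, and for 1 and 1 in Mstn-/- muscle. B cells and natural killer cells had 2 tested markers each, of which 1 was higher in each genotype. Fibro-adipogenic progenitor markers (6 and 5 of 6 higher) and endothelial markers (7 of 8 in each genotype) rose as well. The part of each of these cell types in the rise of the members was not tested. The markers Aif1, Plac8, Cd4, Il7r, Csf3r, Ngp, Nkg7, Flt3 and Itgax passed the filter level in overloaded groups alone, and Elane in untreated groups alone. A difference is thus built into the selection of these markers, and the marker counts describe and do not support.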

How the data were processed

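Intensities per probe set of 24 Affymetrix whole-transcript arrays (24 mice, 1 muscle each, 1000 ng of total RNA per labelling) were deposited by the authors after RMA, per the submitters' processing notes. They run from 4.72 to 25588.9 with array medians of 139 to 147, so they are linear, and log2 was taken without a pseudocount. The number of arrays limits the precision, with a median standard error of 0.067 for a difference between groups. At most 0.0201% of values were identical between any pair of arrays. Nothing given here ties arrays to a batch or date.

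Of 34760 probe sets 21640 had 1 gene symbol, 1321 several and 11799 none in the platform annotation. Symbols of all 50 members matched RefSeq (GRCm38.p6), used for names, gene order and promoters. The sources used here do not give the build of the array annotation. A group mean above intensity 98.9 (log2 6.63) in at least 1 group left 14499 genes.

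A limma 3.58.1 model (R 4.3.3) with the 4 group means as terms used all 24 arrays (20 residual degrees of freedom). After eBayes, p-values of each of the 5 comparisons were adjusted by Benjamini-Hochberg over 14499 genes and called at 0.05. Folds are ratios of geometric means. Data were simulated for overload in wildtype, with 200 of 14499 genes altered per run over 3 runs. The fit recovered 68% of genes changed by 0.3, 92% at 0.5 and 100% at 1 and 2 (log2), with 5.37% of calls false. The simulation altered far fewer genes than the 65.9% called in that comparison and gave each gene 1 spread in all groups. Ccl3, with a wildtype SD of 0.06 untreated and 0.71 overloaded, departs from that. The recovery and false call rates thus need not hold for the members. The labels say biological replicates. Replicate numbers are shared between groups, and the labels do not say whether they pair mice. Of 36 same-number pairs 9 deviated together (correlation over 0.1, range -0.412 to 0.363). Pairs of different numbers were not compared, so these correlations cannot decide it.

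The members, the role classes, the pathway list and the cell type markers were chosen with earlier results of these data known. Members given in full are up to 8 with the largest differences per overload and genotype comparison, all called in the difference between responses, and Ccr1, Ccr2, Cx3cr1, Cxcr4, Cxcr3 and Ackr3. Alternatives changed the normalization, the filter, the probe set rule, the variance model, array weights and a replicate block, and left out each array. Filtering on the mean over all arrays, and leaving out both overloaded arrays with the highest neutrophil marker sum, were chosen after seeing the data.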

Additional observations from a re-analysis of the deposited data

Results flagged for a closer look

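The overload response differed between genotypes by the limma test for 8 members (Mstn-/- minus wildtype, log2): Cxcl13 by -1.99, Ccr2 by -0.96, Cxcl14 by -0.73, Ccl6 by -0.61, Ccl9 by -0.57, Cx3cr1 by -0.42, Ccl24 by -0.34 and Cx3cl1 by -0.30. Cxcl13, Ccr2, Cxcl14, Cx3cr1 and Cx3cl1 kept this call in every setting in which they were tested.

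Single arrays stood apart from the other 5 of their group in 9 of the 200 groups of 6 values examined (50 members in 4 groups), and chance alone gives about 1 in 20. Overloaded Mstn-/- replicate 2 had Cxcl2 at 8.03, with the others at 5.84 to 6.21, and Cxcr2 at 5.83, with the others at 4.77 to 5.11. Overloaded wildtype replicate 3 had Cxcr2 at 6.00, with the others at 4.72 to 5.12. Cxcl2 and its receptor Cxcr2 are neutrophil genes, and on these arrays the summed intensity of 9 neutrophil markers was 1091 and 2255, with group medians of 842 and 880. The highest neutrophil marker sum of overloaded Mstn-/- muscle was on replicate 4, at 1271, where Cxcl2 was 5.89 and Cxcr2 5.11.

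The other values apart were high for Cxcl14 on overloaded wildtype replicate 2 (9.30, the others 8.58 to 8.81) and Cxcl1 on untreated Mstn-/- replicate 5 (7.41, the others 7.17 to 7.26). They were low for Ccl2 on untreated Mstn-/- replicate 3 (6.93, the others 7.24 to 7.42), Ccl9 on untreated wildtype replicate 4 (7.41, the others 7.65 to 7.78), Cxcl16 on untreated wildtype replicate 3 (6.60, the others 6.86 to 7.01) and Ccl28 on untreated wildtype replicate 1 (5.97, the others 6.11 to 6.18).

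A probe set shared by several copies of Ccl21, the lymphatic ligand of Ccr7, was outside the rule because it has more than 1 symbol. It rose under overload by 0.97 in wildtype and 0.99 in Mstn-/- muscle on the log2 scale (limma adjusted p = 0.00013 for each). Between overloaded genotypes it was lower in Mstn-/- muscle (-0.515, adjusted p = 0.044), and between untreated ones it was not called (-0.535, adjusted p = 0.055). Which copies it measures cannot be told from its annotation.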

How the results depend on the processing

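No direction of a called member turned in any setting. Of 77 calls of single members, 63 were kept in every setting in which the member was tested, 13 were lost in at least 1 processing setting and 12 on leaving out at least 1 array. The count of members with a higher signed overload response in Mstn-/- muscle was 0, and 1 with the filter at the 50th percentile and with array weights, where Cxcl9 passed. The counts of all other comparisons stayed within 1.5 times in every processing setting. Leaving out 1 array gave 18 to 20 members higher and 3 to 4 lower under overload in wildtype, 18 to 19 and 4 to 7 in Mstn-/- muscle, 9 to 10 and 1 to 3 between untreated genotypes, 3 to 4 and 5 to 7 between overloaded genotypes, and 0 to 1 and 6 to 8 in the difference between responses. The low of 1 came without untreated wildtype replicate 5 or untreated Mstn-/- replicate 3. Shifting the arrays to the same median moved the median of all genes from -0.06 to -0.12 in wildtype and from -0.06 to -0.13 in Mstn-/- overload, and 18 members were then higher and 5 lower in wildtype, 17 and 7 in Mstn-/- muscle.

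With the replicate number as a block the counts of members higher and lower were 20 and 4 in wildtype overload, 19 and 5 in Mstn-/- overload, 9 and 2 between untreated genotypes, 3 and 6 between overloaded genotypes, and 0 and 8 in the difference between responses. Whether the numbers pair mice is not known.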

Other observations

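Ccl19 had 4 probe sets with its symbol alone, and they disagreed. The one used, with the highest mean, gave no call under overload (-0.02 in wildtype and -0.08 in Mstn-/- muscle), nor did another (-0.29 and -0.08), whereas a dimmer one rose by 0.92 and 0.68 (limma adjusted p = 0.0029 and 0.025, fitted over 16524 probe sets) and the remaining one by 0.18 and 0.27 (adjusted p = 0.03 and 0.0027). Ccl25 had a second probe set that fell with the first, with log2 differences of -0.25 and -0.495 (adjusted p = 0.0015 and 3.6e-07). A probe set of several Ccl27 copies, ligands of Ccr10, fell by 0.36 in wildtype (adjusted p = 0.0039) and was not called in Mstn-/- muscle (-0.08, adjusted p = 0.52).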
